A study of Homo sapiens with 3 samples.

Results

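The E2F family was examined in 2 RNA sequencing libraries of human melanoma cells: the transcription factors E2F1 to E2F8, the DP partner TFDP1 and the pocket protein RBL1, also called p107. Genes were taken by symbol, and all 10 were found among the 20344 genes listed in each deposited file. The libraries are titled A375-VR, Prop and A375, Prop, and are called here the A375-VR library and the A375 library. A375 is an established melanoma cell line with mutant BRAF. The series concerns vemurafenib, a BRAF inhibitor to which melanoma becomes resistant, and propranolol, which blocks beta-adrenergic receptors. The extraction protocol, shared by every sample, names only A375-VR cells, given propranolol at 20 µM or DMSO for 24 h, whereas the A375 library carries A375 in its title and its cell line label. By their titles both libraries are of cells given Prop and differ in cell line, whereas the shared protocol describes A375-VR cells alone. Whether the A375 library is of A375 or A375-VR cells is thus not settled by the labels. With 1 library per group, a difference of culture or library preparation cannot be told apart from one of cell line. The sample with DMSO in its title, of A375-VR cells, was not analysed here.

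E2F proteins decide when a cell starts DNA replication. E2F1, E2F2 and E2F3 are activators that retinoblastoma-type pocket proteins hold in check until cyclin-dependent kinases phosphorylate those proteins late in G1. They bind DNA as dimers with a DP protein, and their targets include replication genes and several family members, so that the family partly controls its own transcription. E2F4 and E2F5 mostly repress the same targets together with p107 and p130, E2F6 represses through polycomb complexes without binding pocket proteins, and E2F7 and E2F8 bind DNA without a DP partner and restrain the programme during S phase.

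The A375-VR library held less RNA of most of the family, least of all of the activator E2F1 relative to the A375 library, and more of the repressor E2F6. Of the 10 genes, 7 had a fold below 1 (A375-VR over A375, a plain ratio of FPKM) whose counting interval did not reach 1. One gene, E2F6, had an interval above 1, and the intervals of E2F3 and E2F5 included 1. FPKM divides the reads or fragments of a gene by its length and by the library total. The 95% exact Clopper-Pearson intervals rest on reads recovered from the FPKM values, cover counting error only and compare 2 libraries, not conditions. Across the 10761 genes that reached an FPKM of 1 in either library, a filter that all 10 family genes passed, 26.4% had an interval below 1 and 43.6% one above 1. Both shares may be too low, because recovered reads can be too few and intervals then too wide. The recovered length lay within 2% of the annotated exon length for 50.1% of genes with both lengths. In bulk RNA, fewer cells that transcribe a gene and less of its RNA per cell cannot be told apart.

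Promoter sequences are shown for E2F1, the gene with the lowest fold, for E2F3 and E2F6, which were not lower, for RBL1, and for E2F4, the most abundant E2F. They come from RefSeq (table build GRCh38.p14), cover 250 bases before to 50 bases after the start of the gene, and run 5′ to 3′ on the strand of the gene. Each matched the GRCh37 reference exactly at 1 place. Capitals mark the E2F letters TTCCCGC, or the variant spelling TTCGCGC, or the variant spelling TTGCCGC, or the variant spelling TTGGCGC, on either strand, so that a match on the other strand reads as its reverse complement.

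E2F1, chr20:32274142-32274441, minus strand: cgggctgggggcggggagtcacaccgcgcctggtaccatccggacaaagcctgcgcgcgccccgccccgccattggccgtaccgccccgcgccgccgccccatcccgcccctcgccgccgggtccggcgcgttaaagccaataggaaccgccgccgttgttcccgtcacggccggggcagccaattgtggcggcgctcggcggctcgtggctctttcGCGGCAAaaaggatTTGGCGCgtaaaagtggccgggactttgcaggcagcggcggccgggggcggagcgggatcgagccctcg

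E2F3, chr6:20401860-20402159, plus strand: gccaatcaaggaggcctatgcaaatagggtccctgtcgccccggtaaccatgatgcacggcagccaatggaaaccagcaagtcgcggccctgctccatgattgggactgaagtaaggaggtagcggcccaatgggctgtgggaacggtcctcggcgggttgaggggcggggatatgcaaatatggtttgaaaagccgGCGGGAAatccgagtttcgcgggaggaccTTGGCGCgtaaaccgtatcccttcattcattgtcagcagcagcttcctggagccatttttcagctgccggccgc

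E2F4, chr16:67225808-67226107, plus strand: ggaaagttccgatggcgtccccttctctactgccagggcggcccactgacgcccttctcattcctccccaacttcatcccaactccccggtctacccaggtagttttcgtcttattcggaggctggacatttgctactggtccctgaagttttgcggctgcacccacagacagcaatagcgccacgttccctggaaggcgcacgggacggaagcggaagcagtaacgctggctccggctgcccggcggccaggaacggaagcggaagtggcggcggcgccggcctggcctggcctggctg

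E2F6, chr2:11606238-11606537, minus strand: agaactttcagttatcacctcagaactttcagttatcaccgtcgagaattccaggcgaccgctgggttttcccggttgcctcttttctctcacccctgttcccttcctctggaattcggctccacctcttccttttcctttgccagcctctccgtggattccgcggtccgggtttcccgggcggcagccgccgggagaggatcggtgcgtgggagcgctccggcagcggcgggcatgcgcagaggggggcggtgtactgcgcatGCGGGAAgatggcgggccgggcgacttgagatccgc

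RBL1, chr20:35724351-35724650, minus strand: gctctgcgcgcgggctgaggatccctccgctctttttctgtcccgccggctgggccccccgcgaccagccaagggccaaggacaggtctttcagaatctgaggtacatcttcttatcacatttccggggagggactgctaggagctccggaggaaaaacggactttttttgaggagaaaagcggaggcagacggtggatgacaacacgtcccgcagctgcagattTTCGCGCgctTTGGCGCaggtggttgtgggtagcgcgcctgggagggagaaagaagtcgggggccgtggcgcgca

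One of these spellings was present in 7 of the 8 family promoters in the table, in 13.0% of all 35116 promoters of that length, and in 21.7% of the promoters of genes past the filter. E2F1 holds 2 matches that begin 33 and 19 bases before the start, and RBL1 holds 2 that begin 25 and 15 bases before it. E2F3, whose level did not differ beyond counting error, also holds 2, at 53 and 24 bases before the start. E2F7 holds 2, E2F2 and TFDP1 hold 1 each, and E2F6 holds 1 that begins 15 bases after the start. The exception was E2F4, in which none of the spelled letters occurred. The letters TTTGAA or TTCGAA, the cell cycle homology region bound by MuvB complexes, were found in 1 of the 8 promoters, that of E2F3, and in 16.4% of all promoters. E2F5 and E2F8 have no entry in the table. A match describes the letters of the window and is not evidence of binding.

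The activators differed most from one another. E2F1 (Entrez 1869, GRCh37 chromosome 20 at 32263283 to 32274191) had 15.2 FPKM in the A375-VR library and 31.1 FPKM in the A375 library. The reads recovered were 624 in the A375-VR library and 1388 in the A375 library, which gives a fold of 0.487 (0.443 to 0.536). On the log2(FPKM + 1) scale, on which differences of at least 1 are called 2-fold here, the E2F1 difference was -0.99 and missed the call by a small margin, because the pseudocount of 1 pulls values together. Only 0.641% of the genes past the filter had a lower difference than E2F1.

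E2F2 (Entrez 1870, chromosome 1 at 23832930 to 23857725), an activator found at low levels here, had 1.204 FPKM in the A375-VR library and 1.99 FPKM in the A375 library. Its fold was 0.606 (0.475 to 0.771) from 108 reads in the A375-VR library and 193 in the A375 library. E2F3 (Entrez 1871, chromosome 6 at 20402110 to 20493945), another activator, had 9.93 FPKM in the A375-VR library and 9.08 FPKM in the A375 library. Its fold of 1.09 (0.993 to 1.205), from 843 reads in the A375-VR library and 835 in the A375 library, was not detectably different from 1 at this depth. E2F3 yields a long and a short protein from separate promoters, and the single value per gene does not separate them. E2F1 thus exceeded E2F3 by a FPKM ratio of 1.53 in the A375-VR library and 3.43 in the A375 library.

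**Figure D1:**
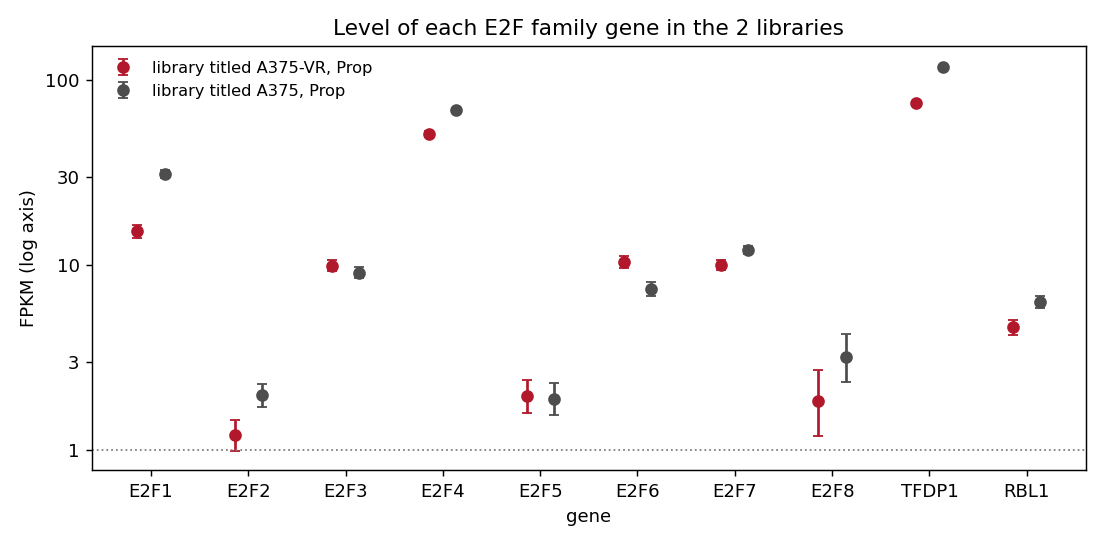
FPKM (log axis) of each family gene in the library titled A375-VR, Prop (red) and the library titled A375, Prop (grey), with 95% exact Poisson intervals from recovered reads, which cover counting error only. The dotted line marks the filter at an FPKM of 1. TFDP1 and E2F4 were the most abundant in both libraries, and E2F6 lies higher in the A375-VR library with no overlap of the intervals.

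Among the pocket-bound repressors, E2F4 (Entrez 1874, chromosome 16 at 67226058 to 67232821) was the most abundant E2F in both libraries, with 51.4 FPKM in the A375-VR library and 68.7 FPKM in the A375 library. Its fold was 0.748 (0.714 to 0.783), from 3025 reads in the A375-VR library and 4383 in the A375 library, so a modest difference was still well outside counting error. E2F5 (Entrez 1875, chromosome 8 at 86089389 to 86129387), the closest relative of E2F4, had 1.95 FPKM in the A375-VR library and 1.89 FPKM in the A375 library, a fold of 1.03 (0.769 to 1.38). The E2F5 values are uncertain, because 16.5% of its annotated exon bases overlap RBIS on the opposite strand and the use of strand in counting is not given in the sources used here.

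E2F6 (Entrez 1876, chromosome 2 at 11584501 to 11606303), which recruits polycomb repressors to genes of the germline and to some G1/S genes, went the other way. It had 10.4 FPKM in the A375-VR library and 7.44 FPKM in the A375 library, a fold of 1.397 (1.25 to 1.57) from 695 reads in the A375-VR library and 539 in the A375 library. On the log2(FPKM + 1) scale its difference was 0.43, and 81.1% of the genes past the filter had a lower one, so that many genes outside the family were further up. E2F6 held 10.2% of the summed FPKM of E2F1 to E2F8 in the A375-VR library and 5.49% in the A375 library.

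The atypical repressors were both lower in the A375-VR library. E2F7 (Entrez 144455, chromosome 12 at 77415028 to 77459349) had 10.04 FPKM there and 12.04 FPKM in the A375 library, a fold of 0.834 (0.768 to 0.904). E2F8 (Entrez 79733, chromosome 11 at 19245610 to 19263167) had 1.84 FPKM in the A375-VR library and 3.19 FPKM in the A375 library, a fold of 0.576 (0.340 to 0.956). The recovered E2F8 reads were 25 in the A375-VR library and 47 in the A375 library over a length of 828 bases, which is the smallest solution and 20.0% of the annotated exon length. At the multiple of 5 nearest to that length, the reads would be 125 in the A375-VR library and 235 in the A375 library, and the interval 0.460 to 0.719. Both genes are themselves E2F targets, and their proteins bind the E2F1 promoter.

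TFDP1 (Entrez 7027, chromosome 13 at 114239036 to 114295788) encodes DP1, the dimer partner of E2F1 to E2F6, and was the most abundant gene of the family. It had 74.8 FPKM in the A375-VR library and 117.6 FPKM in the A375 library, a fold of 0.636 (0.613 to 0.659) from 4597 reads in the A375-VR library and 7837 in the A375 library. The difference of -0.65 on the log2(FPKM + 1) scale was undercut by 3.03% of genes past the filter, and in the family by E2F1 alone, although by plain fold E2F8 and E2F2 were also lower than TFDP1. Against the summed FPKM of E2F1 to E2F6, TFDP1 stood at a ratio of 0.830 in the A375-VR library and 0.978 in the A375 library.

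RBL1 (Entrez 5933, chromosome 20 at 35624752 to 35724400), the pocket protein p107 that binds E2F4 and E2F5 and is made mainly in cycling cells, had 4.61 FPKM in the A375-VR library and 6.32 FPKM in the A375 library. Its fold was 0.729 (0.646 to 0.823) from 451 reads in the A375-VR library and 670 in the A375 library. RBL1 shares 3.58% of its exon bases with a long noncoding RNA gene on the opposite strand. E2F3, E2F4, E2F6 and TFDP1 have 2, 1, 4 and 3 annotated pseudogenes named after them, and reads that such copies take or lend are not visible in a table of 1 value per gene.

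**Figure D2:**
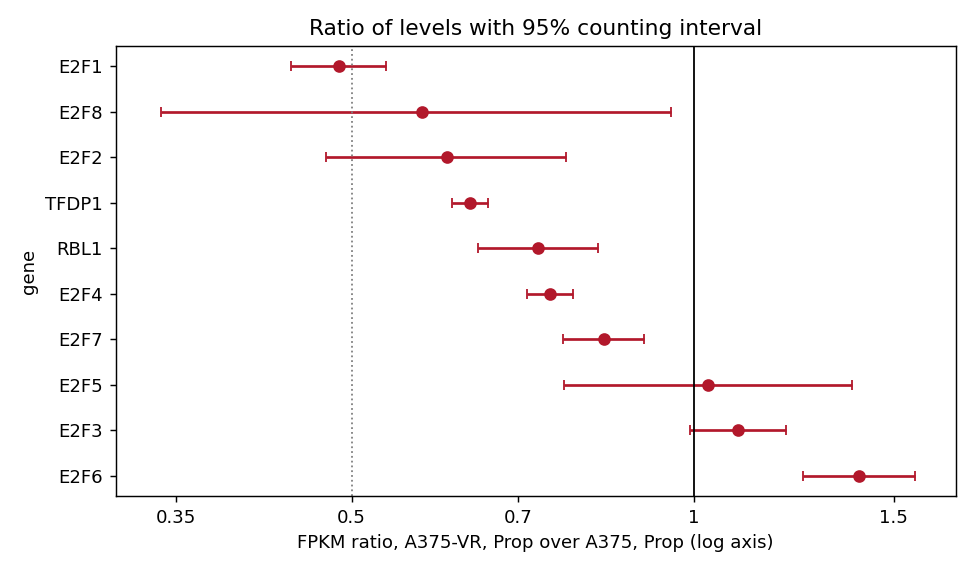
Fold of each family gene (log axis), A375-VR library over A375 library, with 95% exact Clopper-Pearson counting intervals, ordered with the lowest fold at the top. The solid line marks equal levels and the dotted line a fold of 0.5. From E2F1 at 0.487 to E2F7 at 0.834 the intervals lie below 1, those of E2F5 and E2F3 include 1, and that of E2F6 lies above it.

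TFDP1, E2F4 and E2F1 were the most abundant genes of the family in both libraries. In the A375-VR library TFDP1 was followed by E2F4, E2F1, E2F6, E2F7, E2F3, RBL1, E2F5, E2F8 and E2F2. The 95% exact Poisson intervals of E2F6 (9.64 to 11.2 FPKM), E2F7 (9.44 to 10.7 FPKM) and E2F3 (9.27 to 10.6 FPKM) overlapped there, and that of E2F8 overlapped those of E2F5 and E2F2. In the A375 library the order was TFDP1, E2F4, E2F1, E2F7, E2F3, E2F6, RBL1, E2F8, E2F2 and E2F5. There the interval of E2F7 (11.4 to 12.7 FPKM) lay above those of E2F3 (8.47 to 9.72 FPKM) and E2F6 (6.83 to 8.10 FPKM), and of all neighbours in the order those of E2F2 and E2F5 alone overlapped.

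Summed over E2F1 to E2F8, the A375-VR library had 101.9 FPKM and the A375 library 135.5 FPKM, a ratio of 0.752. The 3 activators summed to 26.3 FPKM in the A375-VR library and 42.2 FPKM in the A375 library, and made up 25.8% of the E2F sum in the A375-VR library and 31.1% in the A375 library. E2F4 and E2F5 held 52.3% of the sum in the A375-VR library and 52.1% in the A375 library, and the atypical pair held 11.7% in the A375-VR library and 11.2% in the A375 library. The share of activators was thus smaller in the A375-VR library and that of E2F6 larger, while the share of E2F4 and E2F5 was nearly the same. Among the activators, E2F1 held 14.9% of the sum in the A375-VR library and 23.0% in the A375 library. E2F3 went the other way, with 9.75% in the A375-VR library and 6.70% in the A375 library.

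**Figure D3:**
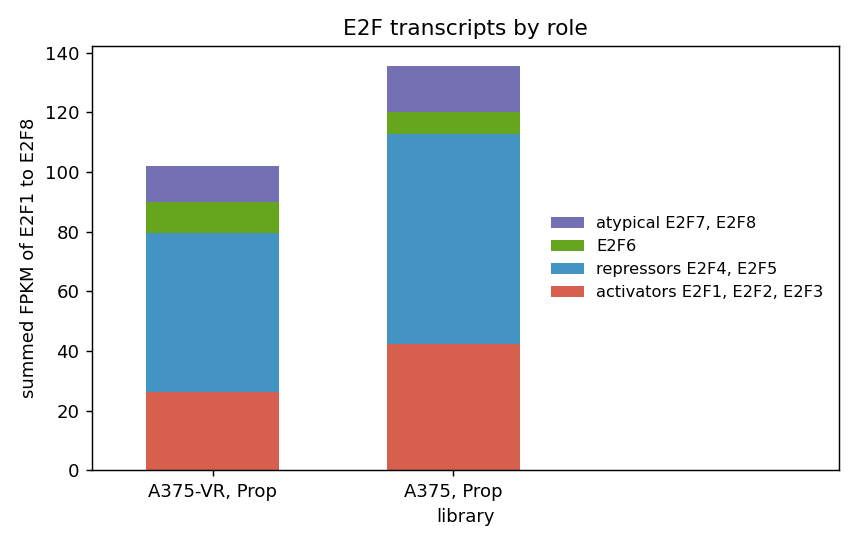
Summed FPKM of E2F1 to E2F8 by role in the library titled A375-VR, Prop (left bar) and the library titled A375, Prop (right bar). The whole bar reaches 101.9 FPKM in the A375-VR library and 135.5 FPKM in the A375 library, and the activator part 26.3 FPKM in the A375-VR library and 42.2 FPKM in the A375 library.

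As a group the 10 genes had a median difference of -0.40 on the log2(FPKM + 1) scale, beside 0.10 for all genes past the filter, and ranged from -0.99 to 0.43. A difference below 0 was found for 7 of the 10 genes and for 39.7% of genes past the filter, and one above 0 for 3 of the 10 and for 60.3% of genes past the filter. No family gene was called 2-fold lower or 2-fold higher, where the background was 0.613% lower and 3.14% higher. After centring both libraries on the median ratio, E2F1 was called 2-fold lower, E2F5 also lay below 0, and the background became 276 genes higher and 101 lower, against 338 higher and 66 lower without centring.

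Relatives of the family outside the 10 genes did not share one direction. RBL2, the pocket protein p130 of resting cells, had 8.58 FPKM in the A375-VR library and 5.22 FPKM in the A375 library, a fold of 1.64 (1.24 to 2.19). RB1, the retinoblastoma gene, had 16.4 FPKM in the A375-VR library and 18.4 FPKM in the A375 library, a fold of 0.892 (0.814 to 0.976). RBL1 made up 15.6% of the summed FPKM of the 3 pocket protein genes in the A375-VR library and 21.1% in the A375 library, and RBL2 made up 29.0% in the A375-VR library and 17.4% in the A375 library. TFDP2, the other DP gene expressed here, had 2.81 FPKM in the A375-VR library and 2.03 FPKM in the A375 library, a fold of 1.38 (1.21 to 1.57), while TFDP3 was listed at 0 in both. TFDP1 exceeded TFDP2 by a FPKM ratio of 26.6 in the A375-VR library and 57.8 in the A375 library.

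MuvB proteins join E2F4, DP1 and p107 or p130 in the repressive DREAM complex, and join B-MYB and FOXM1 later in the cycle to activate mitotic genes. Of 7 such genes listed, 6 passed the filter, and 5 had a difference below 0, beside 39.7% of all genes past the filter. The median was -0.39, beside 0.10 for all genes past the filter. The counting interval lay below 1 for 4 of them, beside 26.4% of all genes past the filter. MYBL2, which encodes B-MYB and is a classic E2F target, had 51.4 FPKM in the A375-VR library and 102.1 FPKM in the A375 library, a fold of 0.503 (0.479 to 0.529). That is close to the fold of E2F1. LIN9 had a fold of 0.651 (0.545 to 0.776), RBBP4 of 0.757 (0.715 to 0.801) and FOXM1 of 0.746 (0.705 to 0.789). LIN52 and LIN54 were named after their values were seen. LIN52 was the exception in direction, with a fold of 1.23 (1.03 to 1.47). LIN54 had a fold of 0.920 (0.698 to 1.21), an interval that included 1.

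The partners of E2F6 in the noncanonical polycomb complex PRC1.6 did not move with E2F6 as a group. All 9 passed the filter, and 3 had a difference below 0, beside 39.7% of all genes past the filter. The median of 0.08 lay beside the 0.10 of all genes. It turned to -0.02, with 5 genes below 0, after centring or with the trimmed mean of log ratios. PCGF6, the subunit that defines the complex, had 7.73 FPKM in the A375-VR library and 11.4 FPKM in the A375 library, a fold of 0.681 (0.565 to 0.819). The ubiquitin ligase genes RNF2 and RING1 had folds of 0.792 (0.704 to 0.890) and 1.21 (1.08 to 1.36), and MAX, a DNA-binding partner of MGA, had 1.215 (1.10 to 1.34).

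Upstream, 13 of 15 genes that act on pocket proteins or E2Fs passed the filter. Of these, 7 had a difference below 0, beside 39.7% of all genes past the filter. The median was -0.05, beside 0.10 for all genes past the filter. It was 0.00 without the filter, -0.16 after centring and -0.17 with the trimmed mean. Of the 7 genes in this list for inhibitors of cyclin-dependent kinases, all but CDKN2B passed the filter. Among those that passed, 4 had a counting interval above 1, beside 43.6% of all genes past the filter. CDKN2C had an interval that included 1, and so did CDKN2A. The 2 CDKN2A reads recovered in each library are the smallest solution, over 111 bases against an annotated exon length of 3885 bases. The CDKN2A interval can thus be far too wide. CDKN2B was listed at 0 in both libraries. CDKN1C, the inhibitor p57, had 29.5 FPKM in the A375-VR library and 6.68 FPKM in the A375 library, and was the only gene of this list called 2-fold higher. CDKN1A, the inhibitor p21, had a fold of 1.62 (1.555 to 1.69), and CDKN2D, the inhibitor p19 of the INK4 group, had 23.7 FPKM in the A375-VR library and 15.6 FPKM in the A375 library, a fold of 1.52 (1.34 to 1.73). SKP2, a ubiquitin ligase subunit that removes the inhibitor p27 and is itself an E2F target, had 20.1 FPKM in the A375-VR library and 32.6 FPKM in the A375 library, a fold of 0.619 (0.577 to 0.663).

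Downstream, textbook targets of the activators at the G1/S transition had lower levels in the A375-VR library throughout the list. Of 44 listed, 43 passed the filter, and all 43 had a difference below 0, beside 39.7% of all genes past the filter. Their median was -0.80 and their range from -1.17 to -0.05. The counting interval lay below 1 for 42 of them, beside 26.4% of all genes past the filter, and 8 were called 2-fold lower, beside 0.613%. The 8 became 13 after centring or with the trimmed mean. Over all genes, 66 such calls became 101 after centring and 103 with the trimmed mean. This list was chosen with the behaviour of such genes in these libraries already known, so it is not independent evidence of their direction. UHRF1, which guides DNA methylation at replication forks, had a difference of -1.17, the primase gene PRIM1 one of -1.16, TYMS one of -1.11 and MCM5 one of -1.08. By plain fold PRIM1 was the lower of the first pair, at 0.399, against 0.432 for UHRF1. The TYMS value is uncertain: ENOSF1 on the opposite strand overlaps 39.9% of its annotated exon bases. The use of strand in counting is not stated. The TYMS reads recovered, 36 in the A375-VR library and 89 in the A375 library, are the smallest solution. They go with a length of 247 bases against 2421 annotated exon bases, so the actual reads may be a multiple of them. The E-type cyclins, which drive the kinase that frees E2F1, are both targets and activators of the family and were chosen here after their values were seen. CCNE2 had 1.90 FPKM in the A375-VR library and 4.30 FPKM in the A375 library, a fold of 0.441 (0.359 to 0.539). CCNE1, the single target whose interval included 1, had 9.66 FPKM in the A375-VR library and 10.02 FPKM in the A375 library, a fold of 0.964 (0.706 to 1.32).

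Apoptosis genes described as E2F1 targets did not as a group share the direction of E2F1, and lay near all genes past the filter. Of 8 listed, 7 passed the filter, and 3 had a difference below 0, beside 39.7% of all genes past the filter. The median was 0.05, beside 0.10 for all genes past the filter. It was -0.05 after centring and with the trimmed mean, and -0.02 without the filter. PMAIP1, the BH3-only protein NOXA, had 17.6 FPKM in the A375-VR library and 24.1 FPKM in the A375 library, a fold of 0.733 (0.662 to 0.811). TP73, the p53 relative induced by E2F1, had 0.621 FPKM in the A375-VR library and 1.046 FPKM in the A375 library. Its fold was 0.593 (0.436 to 0.802) from 69 reads in the A375-VR library and 126 in the A375 library. It passed the filter through the A375 library alone, so its lower direction is tied to its being counted. APAF1, the core of the apoptosome, had a fold of 1.24 (1.01 to 1.53).

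**Figure D4:**
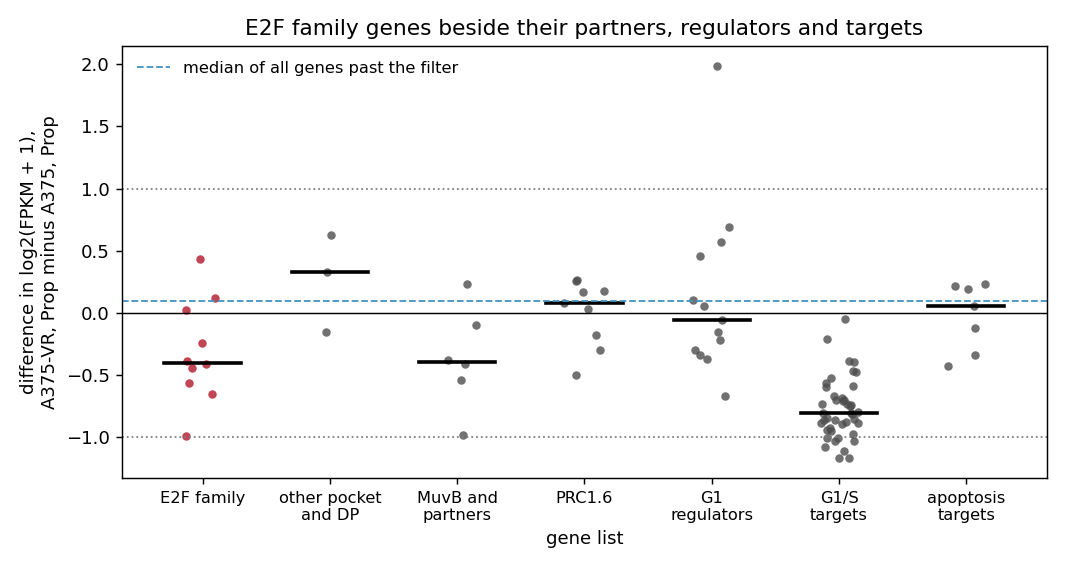
Difference in log2(FPKM + 1), A375-VR library minus A375 library, for each gene past the filter, by gene list, with the E2F family in red. Black bars are list medians, the dashed line is the median of all genes past the filter at 0.10, and dotted lines mark the 2-fold calls. The family spans -0.99 to 0.43 around a median of -0.40, and the G1/S targets have the lowest median, -0.80.

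The library totals behind these values were 16438482 for the A375-VR library and 17811339 for the A375 library, as worked out from the FPKM values. Family genes rested on 25 to 4597 reads in the A375-VR library and on 47 to 7837 in the A375 library. Of 8 melanocyte lineage markers, 3 passed the filter, and the summed level of all 8 was 166.4 FPKM in the A375-VR library and 75.8 FPKM in the A375 library, most of it SOX10. MITF went the other way, with 3.47 FPKM in the A375-VR library and 6.47 FPKM in the A375 library, a fold of 0.537 (0.476 to 0.605). TYR was listed at 0 in both, and MLANA, TYRP1, PMEL and DCT were under the filter, so the pigment markers of the lineage were near absent. All 4 leukocyte markers were listed at 0. Summed keratinocyte markers had 59.5 FPKM in the A375-VR library and 47.8 FPKM in the A375 library, nearly all of it KRT10, while KRT1 and DSG3 were listed at 0. Fibroblast markers summed to 6.97 FPKM in the A375-VR library and 4.86 FPKM in the A375 library, most of it LUM. COL1A1 was under the filter, with 0.1487 FPKM in the A375-VR library and 0.3145 FPKM in the A375 library, a fold of 0.473 (0.280 to 0.777). PDGFRA, also under the filter, went the other way, with a fold of 3.94 (1.98 to 8.51). Endothelial markers summed to 1.97 FPKM in the A375-VR library and 0.546 FPKM in the A375 library, most of it KDR, while PECAM1 and CDH5 stayed under 1 FPKM in both. The part of these marker differences in the E2F values was not tested.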

How the data were processed

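Messenger RNA was sequenced in 1 library per group, and groups were taken from the sample titles. Per the series design text, a stranded TruSeq kit was used, and TopHat 1.3.3 placed the reads on GRCh37. How reads were counted, with which annotation and filters, is not stated there. The authors deposited FPKM, 1 value per gene, zeros kept. From these, log2(FPKM + 1) was taken and the A375 library subtracted from the A375-VR library. Genes that reached an FPKM of 1 in either library were kept, and differences of at least 1 were called 2-fold. With 1 library per group no test of a condition was possible, and no p-value is given.

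The commonest ratio of FPKM between libraries gave the ratio of their totals. Of 12 multiples tried, the one chosen made the recovered gene length equal the GENCODE release 44 exon length for 16.2% of sampled genes, against 11.4% for the next. Reads are the smallest whole numbers (relative tolerance 1e-11) that give both values of a gene, so intervals can be too wide, and they may be reads or fragments. This step was added after the data were seen.

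All family genes are named, with up to 4 genes of largest difference from each other list past the filter, plus RB1, RBL2 and TFDP2; others are marked as chosen after their values were seen. Some genes that this rule takes are not reported here. Members and lists were chosen with earlier results of these data known. Steps were tested on simulated data. Other settings were a pseudocount of 0.1, no filter, a filter at FPKM 5, centring on the median ratio, a trimmed mean of log ratios and rescaling to a common sum. Python 3.11.15, NumPy 2.4.6, pandas 2.3.3 and SciPy 1.17.1 were used.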

Additional observations from a re-analysis of the deposited data

How the results depend on the processing

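Every family gene except E2F5 kept its direction under the 6 other settings that kept it past the filter. E2F5 ranged from -0.05 to 0.06, below 0 after centring on the median ratio and with the trimmed mean of log ratios, and E2F3 came as low as 0.01. E2F1 ranged from -1.10 to -0.99, and was the 1 family gene called 2-fold lower with a pseudocount of 0.1, after centring, with the trimmed mean and after rescaling to a common sum. Over all genes, 2-fold lower calls numbered 140 with a pseudocount of 0.1, 101 after centring, 103 with the trimmed mean and 104 after rescaling, against 66 with the main settings. Calls of 2-fold higher numbered 689 with a pseudocount of 0.1 and 624 after rescaling, against 338 with the main settings. The cause was not tested. Centring and the trimmed mean lowered the median of all genes to 0.00, and each family value by a like amount. No paired analysis was possible because each group has 1 library. E2F8, at 25 recovered reads in the A375-VR library and 47 in the A375 library by the smallest solution, E2F5 and E2F2 are the least precise. At the multiple of 2 nearest to its annotated exon length, the E2F5 interval would be 0.8395 to 1.262, which still includes 1.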

Other observations

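Across the 8919 genes past the filter with a promoter in the RefSeq table, 1933 held one of the 4 E2F spellings searched in the family promoters. Their median difference in log2(FPKM + 1), A375-VR minus A375, was 0.01, and 48.7% were below 0, while genes without these letters had a median of 0.11 and 37.9% below 0. Of the genes with the letters 0.879% were called 2-fold lower, and of those without 0.487%. The median GC content of the promoters was 67.0% with the letters and 65.0% without, and its part in the difference was not tested. The letters were found in 27 of the 38 promoters of G1/S targets in the table, in 2 of 9 of the PRC1.6 genes and in 0 of 11 of the G1 regulators.

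None of the 4 germline genes that E2F6 represses in mouse passed the filter. SLC25A31 and TUBA3C were listed at 0 in both libraries, and SMC1B rested on 3 reads in the A375-VR library and 0 in the A375 library. STAG3, a cohesin subunit of meiosis, was named after its values were seen. It had 0.241 FPKM in the A375-VR library and 0.0327 FPKM in the A375 library, from 34 reads in the A375-VR library and 5 in the A375 library, a fold of 7.37 (2.87 to 24.1).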
